A study of Mus musculus with 12 samples.

Results

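The genes described here were 8 of the 10607 genes in a deposited table of input RNA and ribosome-protected fragments (RPFs) from mouse liver. They were Mbl2, C3, Cfb, Hc, C8a, C9, Cfi and Cfhr2, all of the complement system, and they were taken by symbol. The set was chosen on the RPF values of Cfhr2, which were lower in Mettl5 knockout (KO) than in wild-type (WT) livers, and the other 7 genes were added from the same pathway, so the KO against WT values of Cfhr2 are given as a description and carry no test.

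Livers came from 3 WT and 3 KO mice, and each liver gave 1 input and 1 RPF library, 12 libraries in all. The authors describe the WT controls as littermates of the KO mice. The sample titles give a replicate number but no litter, so the WT and KO mouse with the same number were taken as 1 litter. Litter and littermate below refer to this shared number. METTL5 is the enzyme that places the N6-methyladenosine mark on 18S rRNA. The KO allele was a floxed Mettl5 exon 2 deleted throughout the body by a CMV-cre transgene, in which the broadly active CMV promoter drives Cre. The line began in ES cells of a C57bl/6 x 129S6 hybrid and was backcrossed to B6. Whether WT littermates carried the transgene is not given in the sources used here, and sex and age were not used. No treatment of the living mice is given, and livers of both genotypes were lysed with cycloheximide, a drug that holds ribosomes on their transcripts. Input measures RNA abundance, RPF measures RNA under ribosomes, and translation efficiency (TE) is RPF divided by input for the same mouse.

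Complement is a cascade of plasma proteins made mainly by hepatocytes. Recognition proteins or spontaneous turnover start the cascade, convertases then cleave C3 and C5, and the terminal components assemble into a pore in the target membrane. Factor I and other regulators keep the convertases in check on host cells, and Cfhr2 encodes a secreted protein built of short consensus repeats.

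Cfhr2 (chromosome 1, 139804167 to 139858718, minus strand of mm10) lies on the same chromosome and strand as the predicted gene Gm4788. The coding part of its first coding exon is shown with that of Gm4788, because near-identical sequence limits how reads can be placed. Sequences are from the GENCODE M21 transcripts on GRCm38, 5′ to 3′ on the minus strand, and the capital marks the base that differs from Cfhr2. The positions are chr1:139858555-139858627 for Cfhr2 and chr1:139781096-139781168 for Gm4788.
Cfhr2: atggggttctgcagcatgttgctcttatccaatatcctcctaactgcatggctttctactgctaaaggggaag
Gm4788: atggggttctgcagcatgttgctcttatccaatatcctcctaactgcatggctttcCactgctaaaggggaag
Over these 73 bases Gm4788 differed from Cfhr2 at 1 position. Of the 969 windows of 28 bases in the coding sequence of Cfhr2, 611 (63.1%) had an exact second copy elsewhere in the genome, always on chromosome 1. The share was 39.4% for Gm4788, and it was 0 for the other 7 of the 8 genes. The mapping of RPF reads tolerated mismatches but kept reads with a single location only, so the RPF value of Cfhr2 rests on part of its coding sequence, and the values of Cfhr2 and Gm4788 are uncertain.

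The labels were checked on Mettl5, whose normalized RPF value was 47.8 to 58.4 in WT and 5.53 to 9.56 in KO mice, with no overlap in input either. Input libraries held 2398804 to 5121304 reads in the table and RPF libraries 4623826 to 9184242. Reads assigned to the gene Lars2 alone made up from 18.7% (KO mouse 1) to 31.5% (WT mouse 1) of these input reads. Whether they come from its mRNA was not tested. Cfhr2 had 432 to 941 input and 1217 to 4161 RPF reads per library, C3 had at least 13728 reads in any library, and Cfb had the fewest, 120 to 345. Of 10 hepatocyte markers 9 were found, and their summed normalized RPF value was 698575 to 1097870 in WT and 660844 to 900718 in KO mice. The other was sought as Tf, while the mouse symbol is Trf, so it was missed by name. The 5 stellate cell and fibroblast markers present (of 6) summed to 1815 to 2012 in WT and 2669 to 2835 in KO RPF libraries, and to 901 to 1042 and 1169 to 1213 in input. Summed markers overlapped between genotypes in both assays for Kupffer cells (11 of 11 present), endothelium (6 of 6), cholangiocytes (3 of 5) and leukocytes (1 of 6). The Kupffer cell list holds C1qa, C1qb, C1qc and Vsig4, which are also in the list of complement genes used below. No marker of the count table was at 0 in all 6 input libraries. No marker tested in RPF had an adjusted p under 0.05 in limma. Those tested were 9 hepatocyte, 9 Kupffer cell, 6 endothelial, 5 stellate cell and fibroblast, 2 cholangiocyte and 1 leukocyte markers. The part of these cell types in the results below was not tested.

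Levels were first compared within WT liver, per kilobase of exon for input and per kilobase of coding sequence for RPF. C3, the central component of the cascade, was the most abundant of the 8, with 4720 ± 257 normalized input reads per kilobase (SD, n = 3). C9, Mbl2, Cfi and C8a followed with means of 1106, 1008, 971 and 957, and each overlapped its neighbour in that order. Hc stood at 625 ± 40.3, Cfhr2 at 352 ± 49.8 and Cfb at 87.5 ± 0.636, and these last 3 overlapped with none of the others. The RPF order differed. Per coding kilobase C3 had 8105 ± 419, C9 3250 ± 308, Cfhr2 2478 ± 383, Cfi 2393 ± 400, Mbl2 2247 ± 346, C8a 1913 ± 451, Hc 1539 ± 67.7 and Cfb 68.1 ± 38.0. Cfhr2 thus stood below 6 of the other 7 genes by input and below C3 and C9 alone by RPF, although the ranges of C9, Cfhr2, Cfi, Mbl2 and C8a each overlapped the next. In KO liver Cfhr2 stood below C3, Mbl2, C9 and Cfi by RPF, at 1276 ± 169, and its range overlapped that of C8a but not that of Cfi. These RPF values divide by the whole coding length, but only 358 of the 969 coding windows of Cfhr2 had no exact copy elsewhere. Reads with more than a single location were not kept, so its RPF per kilobase can be understated. Its place in the RPF order is therefore uncertain in both genotypes.

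RPF values exceeded input values for most of the 8 genes in WT liver. No gene length enters TE, while input was counted over exons, so comparisons of TE between genes are limited. C8a has 3636 exonic and 1761 coding bases, and C3 has 5143 and 4989. Per kilobase, C8a had 957 input and 1913 RPF reads, and C3 had 4720 and 8105. The order of genes by TE thus depends on whether length is used. Cfhr2 had TE values of 3.25, 2.69 and 3.14 in the 3 WT mice, Cfi of 2.20, 1.89 and 1.91, and Hc, which encodes C5, of 1.94, 1.95 and 2.05. C9 was at 2.13, 1.91 and 1.82, C3 at 1.70, 1.70 and 1.61, and Mbl2 at 1.63, 1.30 and 1.56. C8a, which encodes the alpha chain of component C8 of the membrane pore, was near 1 with 1.12, 0.964 and 0.810, and Cfb was at 1.04, 0.411 and 0.441. In the limma fit of RPF against input within WT, 5 of the 7 genes other than Cfhr2 passed as higher, where 31% of all 8994 genes tested did and the median log2 difference over all genes was 0.09. The log2 difference was 1.00 for Cfi, 0.99 for Hc, 0.96 for C9, 0.74 for C3 and 0.57 for Mbl2 (limma adjusted p 0.00350). For Cfhr2, whose WT RPF values entered the choice of the set, it was 1.59 (SE 0.15) and is given as a description. C8a had −0.07 (SE 0.17, limma adjusted p 0.764). Cfb passed as lower with −0.80 (SE 0.28, limma adjusted p 0.0224), as did 26.5% of all genes. The call for Cfb was lost in edgeR on whole reads (adjusted p 0.0636), without WT mouse 2 (0.168), without WT mouse 3 (0.159) and without KO mouse 1 (0.0514). In the annotation 79.5% of the exonic bases of Cfb are shared on the same strand with the predicted readthrough gene Gm20547, and 97.4% of the 28-base windows of its coding sequence also occur in transcripts of another gene, so the input, RPF and TE values of Cfb are all uncertain.

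**Figure D1:**
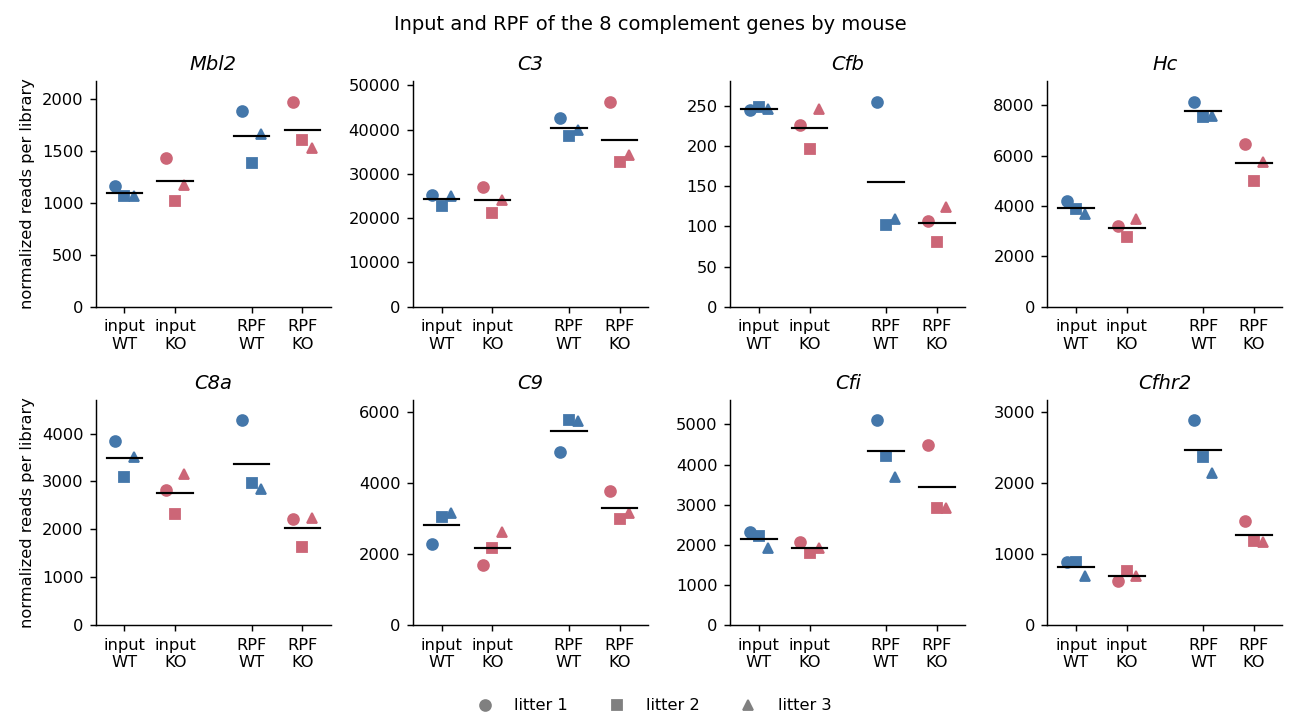
Normalized reads (y axis, linear from 0) of the 8 genes in input and RPF libraries of 3 WT (blue) and 3 KO (red) mice, with 1 symbol per litter and a black line at each group mean. In RPF the KO points of Hc, C8a, C9 and Cfhr2 all lie below the WT points, and those of Mbl2, C3, Cfb and Cfi overlap them.

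Mbl2 encodes a mannose-binding lectin that recognises sugars on microbes and starts the lectin pathway. Its normalized input was 1159, 1067 and 1066 in WT and 1428, 1021 and 1177 in KO mice, and its RPF value 1888, 1383 and 1664 in WT and 1978, 1611 and 1525 in KO mice. The genotypes overlapped in both assays. Log2 fold changes, KO against WT, were 0.17 in input (SE 0.15, edgeR adjusted p 0.999) and 0.05 in RPF (SE 0.15, limma adjusted p 0.909).

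C3 had normalized RPF values of 42722, 38617 and 39965 in WT and 46334, 32725 and 34188 in KO mice. KO mouse 1 was the highest of the 6 and the other KO mice were the lowest. Its input, 22759 to 25182 in WT and 21185 to 27021 in KO livers, overlapped as well. The log2 fold change was 0.01 in input (SE 0.16, edgeR adjusted p 0.999) and −0.12 in RPF (SE 0.15, limma adjusted p 0.777). Cfb encodes factor B, the protease subunit of the alternative convertase. Its RPF value was 256, 102 and 109 in WT and 106, 81.1 and 124 in KO mice, so that WT mouse 1 stood apart and the rest overlapped. Its RPF difference of −0.47 on the log2 scale (SE 0.28, limma adjusted p 0.480) was −0.04 when WT mouse 1 was left out.

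The 3 terminal components among the 8 were all lower in RPF in each KO mouse than in any WT mouse, as were 12.9% of all genes tested. Hc is the substrate whose cleavage opens the terminal pathway, and its normalized RPF value was 8151, 7530 and 7594 in WT and 6458, 4988 and 5728 in KO mice. Its input was 4191, 3859 and 3696 in WT and 3188, 2759 and 3475 in KO mice, again without overlap, where 5.6% of all genes had every KO mouse below every WT mouse in input. In these bulk livers fewer cells of a type and less RNA per cell cannot be told apart. C8a had RPF values of 4283, 2971 and 2851 in WT and 2225, 1630 and 2244 in KO mice, while its input, 3083 to 3839 in WT and 2321 to 3155 in KO, overlapped. C9, the component that polymerises into the wall of the pore, had RPF values of 4872, 5782 and 5757 in WT and 3793, 2992 and 3158 in KO mice. Its input was 2286, 3033 and 3163 in WT and 1688, 2170 and 2629 in KO mice, which overlapped. The KO mouse was below its WT littermate in RPF and in input for all 3 genes and all 3 litters. Over all genes 23.8% had such a difference in all litters in RPF and 14.8% in input.

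In the unpaired limma fit none of these differences passed. The RPF log2 fold change was −0.73 for C9 (SE 0.17, limma adjusted p 0.0558), −0.72 for C8a (SE 0.17, limma adjusted p 0.0691) and −0.45 for Hc (SE 0.13, limma adjusted p 0.136). Across all genes 0.322% passed as lower and 0.167% as higher. The fit with a replicate block of litter left the sizes as they were, and all 3 then passed with limma adjusted p-values of 0.00815 for C9, 0.00376 for C8a and 0.0333 for Hc, where 2.11% of all genes passed as lower. C9 also passed in edgeR on whole reads (adjusted p 0.0450), where 0.545% of all genes passed as lower. Without KO mouse 1, C9 (limma adjusted p 0.0166) and Hc (limma adjusted p 0.0456) passed in the unpaired fit. In that setting 122 of all 8994 genes passed as lower, against 29 with all mice. Input log2 fold changes were −0.37 for C9, −0.31 for C8a and −0.29 for Hc, each with an edgeR adjusted p of 0.999, and 0% of the 10057 genes tested in input passed. The input count was also 0 among the 7 genes other than Cfhr2 under DESeq2, and 348 genes had an unadjusted edgeR p under 0.05, none of them among these 7.

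**Figure D2:**
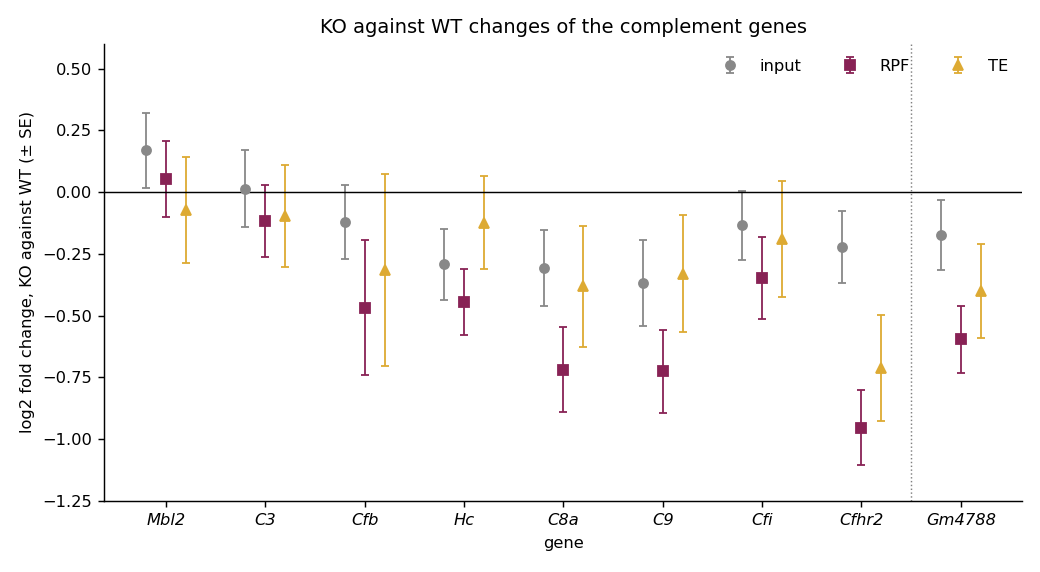
Log2 fold change of KO against WT (y axis, bars are SE of the fit, n = 3 mice per genotype) in input, RPF and TE for the 8 genes and, right of the dotted line, Gm4788. RPF changes run from −0.95 for Cfhr2 to 0.05 for Mbl2. TE changes are below 0 for all 8, Cfhr2 included, as for 51.3% of all genes tested.

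Cfi encodes factor I, the protease that cuts C3b and C4b once a cofactor is bound. Its RPF value was 5109, 4200 and 3678 in WT and 4489, 2924 and 2912 in KO mice, where only KO mouse 1 fell within the WT range. The log2 fold change was −0.35 in RPF (SE 0.17, limma adjusted p 0.374) and −0.13 in input (SE 0.14, edgeR adjusted p 0.999).

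Cfhr2 had normalized RPF values of 2889, 2370 and 2146 in WT and 1465, 1184 and 1163 in KO mice. The highest KO value was below the lowest WT value. Input was 888, 882 and 684 in WT and 619, 759 and 691 in KO mice, where the genotypes overlapped. Its TE was 3.25, 2.69 and 3.14 in WT and 2.37, 1.56 and 1.68 in KO mice. The fitted log2 fold changes were −0.95 in RPF (SE 0.15), −0.22 in input (SE 0.15) and −0.71 in TE (SE 0.22). Within litters 1, 2 and 3 the RPF log2 ratio was −0.98, −1.0 and −0.88 and the input log2 ratio −0.52, −0.22 and 0.01. Leaving out 1 mouse at a time gave RPF log2 fold changes of −1.06 to −0.84.

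The predicted gene Gm4788 was followed in the same way. Its RPF value was 1297, 1285 and 1125 in WT and 903, 786 and 765 in KO mice, with every KO mouse below every WT mouse as for 12.9% of all genes. The log2 fold change was −0.60 in RPF (SE 0.14, limma adjusted p 0.0518) and −0.17 in input. Gm4788 passed with the replicate block of litter (limma adjusted p 0.00928) and in edgeR on whole reads (adjusted p 0.0402). Cfhr3 had 4 to 18 input counts per library and was not in the normalized table.

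TE changes were smaller than RPF changes for most of the 8 genes. They were −0.38 for C8a (SE 0.25), −0.33 for C9 (SE 0.24), −0.32 for Cfb (SE 0.39), −0.19 for Cfi (SE 0.24), −0.12 for Hc (SE 0.19), −0.10 for C3 (SE 0.21) and −0.07 for Mbl2 (SE 0.22), all at 0.998 after adjustment in limma. The median of these 7 was −0.19, against −0.01 over all genes tested. Over all genes 0% passed for TE in limma, while 423 of 8994 had an unadjusted p under 0.05, none of them among these 7. No TE call among them appeared under edgeR on whole reads, the replicate block of litter, the block of mouse or any single mouse left out. C8a was the one gene of the 7 whose TE did not overlap, at 0.810 to 1.12 in WT and 0.702 to 0.788 in KO mice, and 7.34% of all genes had every KO mouse below every WT mouse in TE.

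The wider pathway was read from a list of 55 complement genes, 42 of which were in the normalized table and 39 of which passed the filter on low values. Without Cfhr2, 24 of 38 (63.2%) had a negative RPF log2 fold change, as did 54.0% of all genes tested. The median of the 38 was −0.08 against −0.03 over all genes, and 0 passed in the unpaired limma fit. An unadjusted p under 0.05 was seen for 15 of the 38 (39.5%) and for 13.4% of all genes. With the replicate block of litter 7 of the 38 passed, all of them lower, against 2.11% of all genes. They were C9, C8a, Hc, C6, C8b, Gm4788 and C1s1. Gm4788 shares coding sequence with Cfhr2, on whose RPF values the set was chosen. With a trend in coding GC content also removed, C9 and C8a alone of the 38 passed, against 0.745% of all genes. Of the 7, C6 and C8b encode further parts of the membrane pore and C1s1 encodes a C1s protease of the classical pathway. Every KO mouse was below every WT mouse in RPF for 13 of the 38, and every KO mouse was above for 5 of them (C1qc, Colec10, Colec11, Cpn2 and Cd55), against 12.9% and 6.97% of all genes.

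Of the 6 roles with at least 3 genes tested, the terminal pathway had the most negative median. The Cfhr genes held Gm4788 alone beside Cfhr2, at −0.60. All 6 tested genes of the terminal pathway (Hc, C6, C8a, C8b, C8g and C9) had every KO mouse below every WT mouse in RPF, a separation that 12.9% of all genes showed. Their RPF log2 fold changes ran from −0.73 to −0.34 with a median of −0.62, 0 passed in the unpaired limma fit, and all 6 had an unadjusted p under 0.05. In input all 6 had negative values, as did 50.0% of all genes tested, and their median was −0.31. Hc alone had no overlap in input, against 5.6% of all genes. C6 stood at −0.63 in RPF (SE 0.22, limma adjusted p 0.207), C8b at −0.60 (SE 0.20, limma adjusted p 0.204) and C8g at −0.34 (SE 0.13, limma adjusted p 0.255). The TE changes of C6, C8b and C8g were −0.09, −0.23 and −0.24 (limma adjusted p 0.998 for each). In RPF with the replicate block 5 of the 6 passed, C8g being the exception, against 2.11% of all genes. With the GC trend also removed 2 of the 6 passed (C8a and C9), and C6 (limma adjusted p 0.0988) and C8b (0.108) no longer did. C7 had 0 to 8 input counts per library and was not in the table.

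Medians of the other 5 of these roles lay nearer to 0. The 12 recognition and initiating protease genes had a median RPF log2 fold change of 0.10 and a range of −0.43 to 0.74. The 5 convertase components had −0.08, the 7 soluble regulators −0.04, the 3 membrane regulators 0.04 and the 4 receptors 0.08. The membrane regulators ran from −0.69 for Cd59a (SE 0.22, limma adjusted p 0.160), which blocks assembly of the pore, to 0.91 for Cd55 (SE 0.31, limma adjusted p 0.197), which speeds the decay of convertases. In input the log2 fold change was −0.71 for Cd59a and −0.08 for Cd55 (edgeR adjusted p 0.999 for each). In TE it was 0.07 for Cd59a and 1.01 for Cd55 (limma adjusted p 0.998 for each). None of these 31 genes passed in the unpaired fit. In WT liver 27 of the 38 pathway genes without Cfhr2 passed as higher in RPF than in input and 2 as lower, against 31% and 26.5% of all genes. Their median log2 difference was 0.82, against 0.09 over all genes. Gene length does not enter these differences either. Gm4788 was among the 27, at 1.42.

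**Figure D3:**
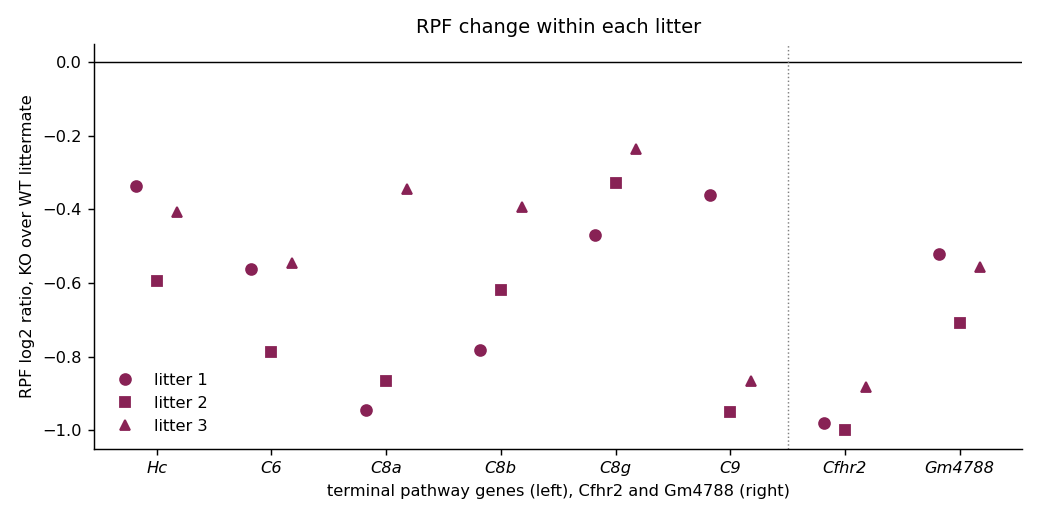
RPF log2 ratio of each KO mouse over its WT littermate (y axis, 1 symbol per litter) for 6 terminal pathway genes on the left and Cfhr2 and Gm4788 on the right. All 3 ratios are below 0 for each of the terminal genes and Gm4788, as for 23.8% of all genes, and also for Cfhr2, which was chosen on its RPF values.

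RPF changes over all genes went with the GC content of the coding sequence, and the 8 genes differ in that content. It was 41.3% for Cfhr2, 43.4% for C9, 44.8% for Hc, 48.0% for Cfi, 49.5% for C8a, 50.5% for Mbl2, 52.9% for Cfb and 53.3% for C3, with a median of 52.6% over all genes. Genes with 40 to 45% GC had a median RPF log2 fold change of −0.26 (989 genes), and those with 45 to 50% one of −0.15 (2106 genes). The slope of RPF values on GC content, for each 10 points of GC and set against the average RPF library, was −0.17, −0.14 and −0.08 in WT and −0.0086, 0.12 and 0.28 in KO mice. After a smooth trend with GC content was taken out of each library, the RPF log2 fold change was −0.74 for Cfhr2 (SE 0.14), −0.65 for C8a (SE 0.17), −0.55 for C9 (SE 0.17), −0.30 for Hc (SE 0.13) and −0.38 for Gm4788 (SE 0.13). With that trend removed and the replicate block of litter, C8a (limma adjusted p 0.0131) and C9 (0.0443) passed, and Hc (0.227), Gm4788 (0.137) and C1s1 did not, where 0.745% of all genes passed as lower. The order of the 4 most negative of the 8 genes changed from Cfhr2, C9, C8a and Cfb to Cfhr2, C8a, C9 and Cfb.

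**Figure D4:**
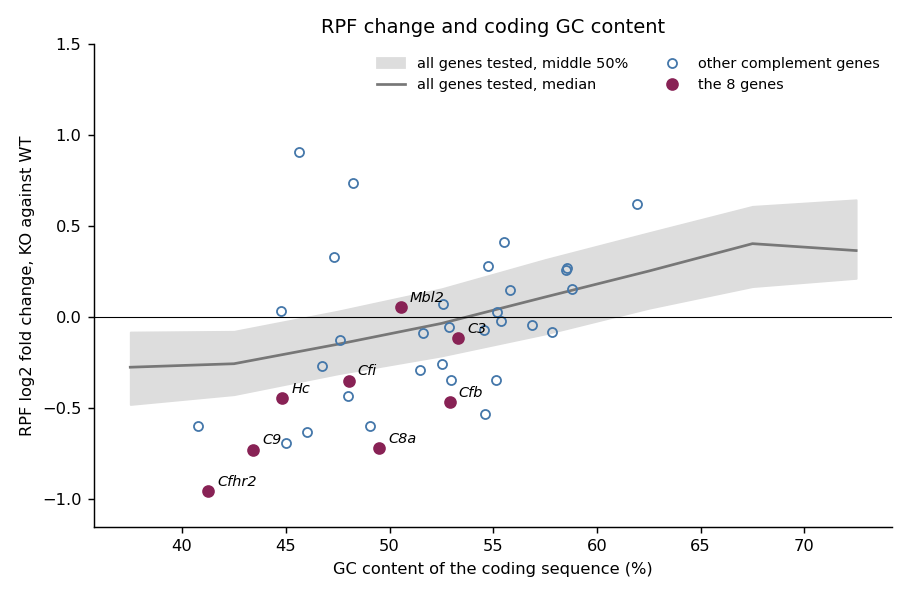
RPF log2 fold change of KO against WT (y axis) by GC content of the coding sequence in percent (x axis) for the 8 genes (filled) and the other 31 tested complement genes (open), over the median and middle 50% of all genes tested in bins of 5 percentage points. Mbl2 and C3 lie inside the band, and the other 6 genes lie below it.

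The genes most like Cfhr2 across the 12 libraries were found by Pearson correlation of log2 values centred within each assay, as a description over 8993 genes that share library, depth and the KO against WT difference on which Cfhr2 was chosen. They were Gm4788 (r = 0.979), Aadac (0.960), F9 (0.957), Ranbp9 (0.951) and Glyat (0.948). Aadac encodes an esterase of the endoplasmic reticulum, F9 coagulation factor IX and Glyat a glycine acyltransferase of mitochondria. Gm4788 shares reads' sequence with Cfhr2, as shown by the near-identical first coding exons. Of the 8 genes Hc (r = 0.813), C8a (0.806), Cfi (0.767) and C9 (0.735) came closest, C3 had 0.347 and Mbl2 had −0.07.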

How the data were processed

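Ribosome profiling of 3 WT and 3 KO livers was analysed from the deposited files. The authors made input counts, deposited as whole read pairs per gene over exons by strand, with BBDuk, STAR 2.7.3a on mm10, unique alignments and featureCounts. For RPF the authors used read 1, removed rRNA reads and mapped with RiboToolkit at a single location with up to 2 mismatches. The region over which RPFs were counted is not given in the sources used here. The deposited table of signal per gene holds reads divided by 1 factor per library. 100% of its values came out as whole reads, with a tolerance of 0.001 times the read number, so only low values could have failed. Its input reads equalled the counts. No gene length enters it. It also holds, per gene, the authors' own comparison of TE as a log2 fold change with raw and adjusted p-values, and these deposited columns were not used. No column lacked a sample.

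Input counts were tested with edgeR 4.0.16 (quasi-likelihood, TMM) and normalized values with limma 3.58.1 in R 4.3.3 on log2(value + 1), a scale that understates changes of low genes, over all 12 libraries, after dropping genes whose mean was under 10 in either assay. Adjusted p-values are Benjamini-Hochberg values over all genes tested, and 0.05 was the threshold. Groups came from the sample titles, which give a genotype and a replicate number, and litters were inferred from that number. Deviations from group means correlated between WT and KO mice of the same number with r = 0.082, 0.127 and 0.100 in input. In RPF these r values were 0.242, 0.144 and 0.195. For mice of different numbers r was −0.117 to 0.017 in input and −0.239 to 0.081 in RPF. Mice of the same number thus shared some variation. A litter and a batch of processing with the same number cannot be told apart here. The authors' methods state no litter term, so the unpaired fit comes first, with paired values beside results whose call they change. Replicate libraries differed by more than sampling noise (chi-square over degrees of freedom between 5.41 and 37.7).

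Alternatives were RLE factors, DESeq2 1.42.0, other pseudocounts and filters, edgeR on whole reads, RPF columns alone, blocks of litter or mouse, removal of a spline trend with coding GC content and leaving out each mouse. The test scripts were tested on simulated data. Coding sequences are the longest of each gene in GENCODE M21.

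The genes and pathway lists were chosen with earlier results of these data known. Named are the 8 genes, the Cfhr genes, complement genes with an adjusted p under 0.05 in a comparison, the 5 genes most like Cfhr2, and Mettl5. Some items of the pathway are not reported here. Other complement genes were named after their values were seen.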

Additional observations from a re-analysis of the deposited data

How the results depend on the processing

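With 3 mice per genotype, single calls near the threshold moved with the setting. Of the 7 complement genes tested for RPF, 0 passed in the unpaired fit, 1 with a mean of at least 50 (C9), 1 in edgeR on whole reads (C9), 3 with the replicate block of litter (C9, C8a and Hc), 2 with the GC trend removed and the replicate block (C9 and C8a), and 0 to 2 when each mouse was left out, the 2 being C9 and Hc without KO mouse 1. The replicate block changed no call of these genes in input or TE, where 0 passed in every setting run. The RPF log2 fold change of Cfhr2 was −0.74 with the GC trend removed, with or without the replicate block, against −0.95 in the unpaired fit and −1.06 to −0.84 with each mouse left out. Signs turned for 4 values. With each mouse left out in turn, the log2 fold change of C3 in input ran from −0.085 (without KO mouse 1) to 0.10, that of Mbl2 in RPF from −0.065 (without WT mouse 2) to 0.16, that of Cfb in TE from −0.56 to 0.11 (without WT mouse 1), and that of C8a in RPF against input in WT from −0.18 to 0.052 (without WT mouse 3). C3 was also below 0 without WT mouse 2 (−0.033) and Mbl2 without KO mouse 1 (−0.058). In RPF against input within WT, Cfhr2 was left out, because its WT RPF values entered the choice of the set. Among the other 7 genes Cfb alone lost its call. It did so in edgeR on whole reads and without WT mouse 2, WT mouse 3 or KO mouse 1. Over all genes, 44 passed in RPF in the unpaired fit, 293 with the replicate block, 24 with the GC trend removed, 79 in edgeR on whole reads, 23 with RPF columns alone, 63 with a mean of at least 50, and from 0 (without KO mouse 2) to 228 (without KO mouse 1) with each mouse left out. The causes were not tested. Of 468 recomputed values, 442 kept sign and call (single genes), stayed within 1.5 times (counts of genes) or moved by under 1 SD between replicates (Cfhr2). The depth limits Cfb most, with 120 RPF reads in its shallowest library.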
